A study of Homo sapiens with 3 samples.

Results

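The genes described here encode 44 proteins of DNA replication and deoxynucleotide synthesis: the polymerases, the sliding clamp and its loader, helicase and origin-binding subunits, single-strand binding proteins, factors that finish Okazaki fragments or protect forks, and enzymes that make deoxynucleotides. They were listed by function and matched by symbol, by a rule that uses no measured value although earlier results of these data were known, and all 44 matched among the 20033 protein-coding genes of GENCODE release 44 on chromosomes 1 to 22, X and Y. Each was described by the CHD8 and TRRAP ChIP-seq peaks that touched its promoter window, which reached 1 kb to either side of the canonical transcript start. The cells were wild-type (WT) human neural stem cells made from the embryonic stem cell line H9, and were grown with EGF and FGF. Chromatin crosslinked with disuccinimidyl glutarate and then formaldehyde was precipitated with an antibody against CHD8 or against TRRAP. Each antibody had 1 library from 1 cell line, with no replicates, and the control IgG library was not analysed here.

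CHD8 is an ATP-dependent chromatin remodeler, and TRRAP is the large scaffold of histone acetyltransferase complexes that MYC and E2F proteins recruit to promoters. Replication genes are textbook targets of E2F: their promoters are held silent by pocket proteins with repressor E2Fs in resting cells and are switched on as cells enter S phase. Neural stem cells divide often, and dividing cells use replication genes, but neither expression nor division was measured in the data used here. The study's title names the control of MYC and E2F target genes as its subject.

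The CHD8 list held 23393 peaks and the TRRAP list 14735 peaks, and the read totals behind them are unknown. Fold values, as deposited by the authors, are linear ratios of the signal at a peak over the caller's background, and they are compared here only within a list. They rose in steps of about 0.442 (CHD8) and 0.478 (TRRAP), so folds 1 step apart differ by the smallest amount recorded. Of 10 neural stem cell marker genes (SOX1, SOX2, NES, PAX6, VIM, MSI1, FABP7, HES1, HES5 and NOTCH1), 10 had a CHD8 promoter peak and 8 a TRRAP promoter peak. Of 5 pluripotency genes, 2 (LIN28A and DPPA4) had both peaks and POU5F1, NANOG and ZFP42 had neither. Of 5 neuronal genes 2 had both, and 0 of 3 astrocyte and 0 of 3 mesoderm or endoderm genes had either. Over all coding genes, 55.9% had a CHD8 promoter peak and 34.9% a TRRAP promoter peak. A promoter peak is not a measure of expression.

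CHD8 was found at nearly every replication gene and TRRAP at about 2 in 3 of them. A CHD8 promoter peak was present at 42 of 44 genes (95.5%, Wilson 95% interval 84.9 to 98.7), where 55.9% of all protein-coding genes had one. A TRRAP promoter peak was present at 30 of 44 genes (68.2%, 53.4 to 80.0), against 34.9% of all protein-coding genes. All 30 of these also had CHD8, as did 97.2% of all coding genes with TRRAP, so the share with both was likewise 68.2%, against 34.0%. CHD8 without TRRAP was seen at 12 genes (27.3%, against 4406 of 20033 coding genes, or 22%) and TRRAP without CHD8 at 0 (against 0.988%). Neither was seen at 2 genes, RPA3 and TIPIN (4.55%, against 43.1%). When only the peaks above the median rank of each list were kept, 33 genes had CHD8 (75.0%, against 42.5% of all coding genes). At that cut 13 had TRRAP (29.5%, against 19.5%) and 10 had both (22.7%, against 16.7%). The intervals cover counting error only. With 1 library per antibody no test was possible, and genes are not replicates.

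The promoters of these genes are rich in CpG, as are many promoters with peaks. The CpG ratio (observed over expected CpG in 500 bp on each side of the start) had a median of 0.793 over the 44 genes and 0.725 over all coding genes. Among coding genes with a CpG ratio of at least 0.6, 77.7% had CHD8, 50.1% had TRRAP and 48.8% had both. Of the 40 replication genes with such a ratio, 39 had CHD8 (97.5%, 87.1 to 99.6) and 28 had both (70.0%, 54.6 to 81.9). Given a CHD8 peak, the replication genes were close to other genes: TRRAP was present at 30 of 42 (71.4%, 56.4 to 82.8), and at 60.7% of all coding genes with CHD8, which lies within that interval.

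**Figure D1:**
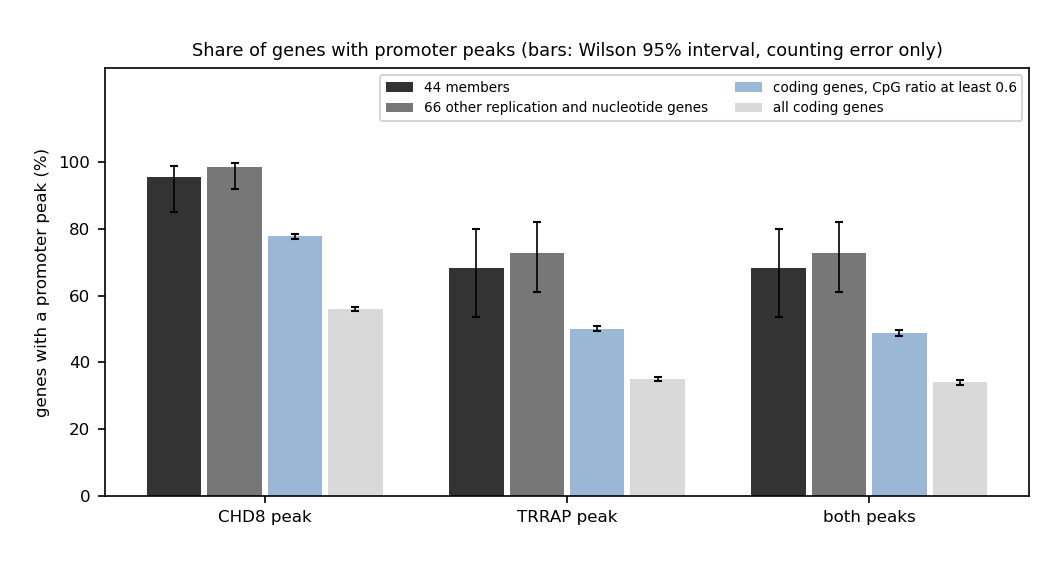
Share of genes with a CHD8 peak, a TRRAP peak or both within 1 kb of the canonical start, in percent, for the 44 replication genes, 66 further replication and nucleotide genes, CpG-rich coding genes and all coding genes; error bars are Wilson 95% intervals. The 44 genes stand at 95.5% for CHD8 and 68.2% for TRRAP, and all coding genes at 55.9% and 34.9%.

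At the level of fold, the replication genes were ordinary for promoters with a peak. For genes with several peaks in the window, the peak with the highest fold is given. CHD8 folds ran from 6.66 to 42.0 with a median of 12.8 (25th to 75th percentile 9.86 to 15.5), beside a median of 12.0 over all coding genes with a CHD8 promoter peak. TRRAP folds ran from 6.26 to 20.6 with a median of 8.17 (7.21 to 9.60), beside a median of 8.65. Of the 30 TRRAP folds, 17 (56.7%) were at or under the median of the whole TRRAP list, and 44.8% of all TRRAP-bearing coding genes were. CHD8 folds were above the median of the CHD8 list at 33 of 42 genes (78.6%), against 73.2% of all coding genes with CHD8.

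**Figure D2:**
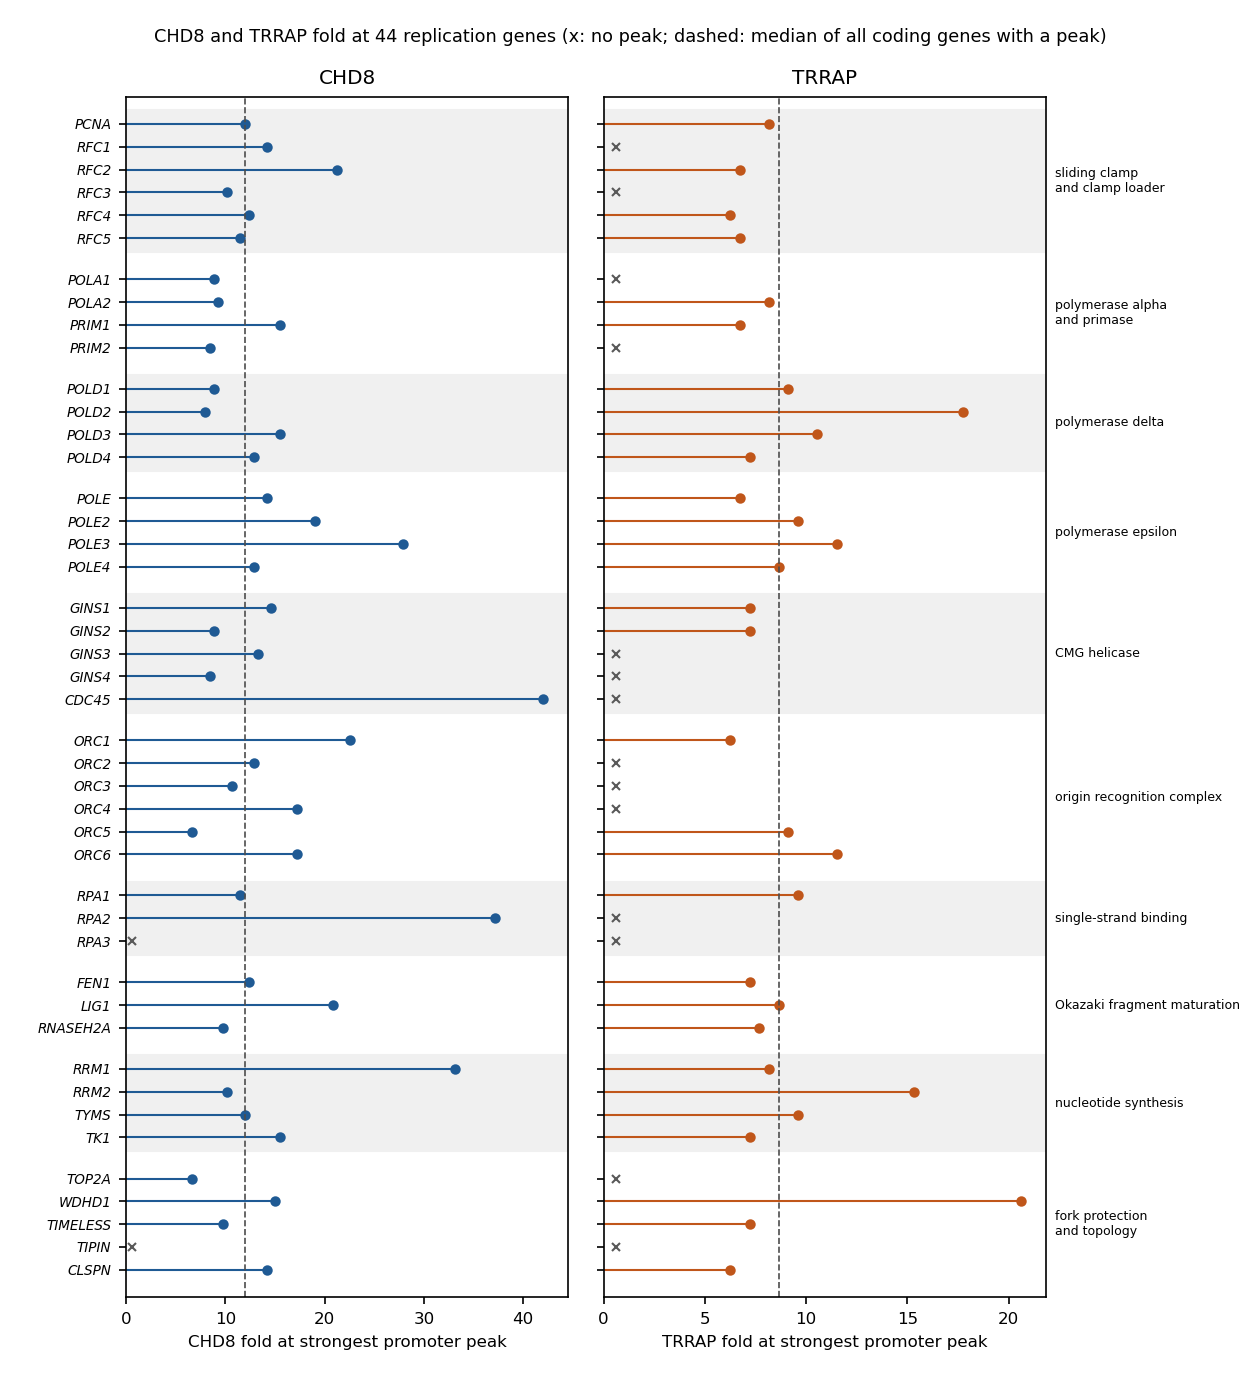
CHD8 fold (left) and TRRAP fold (right) at the strongest promoter peak of each of the 44 genes, grouped by role; a cross marks a gene with no peak, and the dashed line is the median of all coding genes with a peak. CDC45 (42.0) and RPA2 (37.2) lead the CHD8 panel and have a cross in the TRRAP panel, where WDHD1 (20.6) and POLD2 (17.7) lead.

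All 12 subunits of polymerase alpha with primase and of polymerases delta and epsilon had CHD8, and 10 had TRRAP. Beside this and the counts by role below, 55.9% of all coding genes had CHD8, 34.9% had TRRAP and 34.0% had both. Polymerase delta copies mainly the lagging strand and polymerase epsilon the leading strand, and all 8 of their subunits had both peaks. For delta, the catalytic subunit POLD1 (chr19:50384121-50384551) had folds of 8.87 for CHD8 and 9.12 for TRRAP. The accessory subunit POLD2 combined one of the lowest CHD8 folds, 7.98 (chr7:44123230-44123905), with a TRRAP fold of 17.7 (chr7:44123201-44124099). Its TRRAP peak, 899 bp wide, was the widest of the 44 genes and covered the whole CHD8 peak of 676 bp. Only 7.07% of coding genes with TRRAP had a TRRAP fold as high as that of POLD2. POLD3 had folds of 15.5 (CHD8) and 10.6 (TRRAP), and the small subunit POLD4 had 12.8 and 7.21.

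For epsilon, the histone-fold subunit POLE3 (chr9:113410181-113411009) had the highest CHD8 fold of any polymerase gene, 27.9, with a TRRAP fold of 11.5. The second subunit POLE2 had 19.0 and 9.60, and POLE4, the histone-fold partner of POLE3, had 12.8 and 8.65. The catalytic subunit POLE had a CHD8 fold of 14.2 under 1 peak of 1059 bp, and 3 narrow TRRAP peaks of 125, 146 and 159 bp with folds of 6.73, 6.73 and 6.26. Polymerase alpha and primase, which lay down the primers, divided by subunit. POLA2 (CHD8 9.31, TRRAP 8.17) and the catalytic primase PRIM1 (15.5 and 6.73) had both peaks. The catalytic POLA1 (8.87) and the large primase subunit PRIM2 (8.43) had CHD8 only.

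The polymerase genes also carried many of the E2F words of the list, so the words are shown here. An E2F word was any of TTTCCCGC, TTTCGCGC, TTTGCCGC and TTTGGCGC on either strand, without mismatch, from 250 bp before to 50 bp after the start. One of them was present at 16 of 44 genes (36.4%, 23.8 to 51.1), against 4.36% of all coding promoters of the same length and 6.56% of those with both peaks. By role, 7 of the 12 polymerase and primase genes and 9 of the other 32 genes had a word. The 7 polymerase sites follow, each with 10 reference bases (GRCh38) on either side, read on the strand on which the word begins with TTT; capitals mark the word.
POLA1 (chrX:24693771-24693798, minus strand): cggacgcgcgTTTGGCGCcctgtgatga
POLA2 (chr11:65261899-65261926, plus strand): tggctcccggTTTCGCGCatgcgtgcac
POLD1 (chr19:50384358-50384385, minus strand): tcaaacagcgTTTCCCGCcacagcctac
POLD3 (chr11:74592579-74592606, plus strand): agcaaagacgTTTCCCGCcggcgggagc
POLE (chr12:132687343-132687370, plus strand): aggggagaaaTTTGGCGCgctcccaccc
POLE2 (chr14:49688202-49688229, plus strand): atatttgcgaTTTGGCGCcaccgccgca
POLE4 (chr2:74958602-74958629, minus strand): gcgcaggcccTTTCCCGCgcgggctgga
The words of POLD3, POLE and POLE2 lay within 20 bp of the start, and that of POLA1, 137 bp upstream, was the most distant. POLA1 was also the only gene of these 7 without TRRAP.

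E2F words did not separate the genes with TRRAP from those without it. A word was present at 11 of the 30 genes with both peaks (POLA2, POLD1, POLD3, POLE, POLE2, POLE4, GINS1, GINS2, LIG1, TYMS and CLSPN) and at 4 of the 12 with CHD8 only (RFC3, POLA1, GINS3 and ORC3). The last gene with a word was TIPIN, which had neither peak at its canonical start. Of the 17 words at the 16 genes, 15 began within 100 bp of the start and 10 began in the 60 bp just upstream. The word TTTCCCGC made up 10 of them and TTTGGCGC 6.

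Upstream sequence without annotated exons is given for the 3 genes with both peaks and an E2F word there, reading towards the start in the direction of the gene, with the word in capitals; the last base is the one before the start. POLE4 encodes a polymerase epsilon subunit, TYMS thymidylate synthase, which makes dTMP from dUMP, and GINS2 a helicase subunit.
POLE4 (chr2:74958393-74958642, plus strand): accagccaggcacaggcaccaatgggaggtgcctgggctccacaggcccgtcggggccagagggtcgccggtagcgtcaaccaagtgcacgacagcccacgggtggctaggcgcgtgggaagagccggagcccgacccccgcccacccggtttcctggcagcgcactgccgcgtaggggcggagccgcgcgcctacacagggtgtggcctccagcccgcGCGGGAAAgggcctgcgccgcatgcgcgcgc
TYMS (chr18:657598-657652, plus strand): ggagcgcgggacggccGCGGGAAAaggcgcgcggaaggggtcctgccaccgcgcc
GINS2 (chr16:85688955-85689204, minus strand): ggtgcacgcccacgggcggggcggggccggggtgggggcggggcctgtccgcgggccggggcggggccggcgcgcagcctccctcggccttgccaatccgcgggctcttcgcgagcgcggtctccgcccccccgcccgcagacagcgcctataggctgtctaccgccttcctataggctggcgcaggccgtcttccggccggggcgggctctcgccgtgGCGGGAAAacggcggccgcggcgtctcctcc
In each of them the word, which reads TTTCCCGC on the other strand, began 31 or 39 bp upstream of the start. The CHD8 folds were 12.8 at POLE4, 12.0 at TYMS and 8.87 at GINS2, and the TRRAP summits lay 3 bp downstream of the start at POLE4, 35 bp upstream at TYMS and 45 bp downstream at GINS2.

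Among other consensus words, CCAAT, the core of the element bound by NF-Y, was present at 26 of the 44 promoters (59.1%, 44.4 to 72.3), against 36.1% of all coding promoters and 34.7% of those with both peaks. It occurred at 18 of the 30 genes with both peaks and at 8 of the 12 with CHD8 only. CCAAT and E2F words occurred together at 7 of the 44 genes, and 9 genes had neither. The matching shares of all coding promoters were not computed, so these counts only describe the listed genes. The E-box CACGTG, which MYC and MAX bind, was present at 4 genes (ORC4, RPA1, FEN1 and TIMELESS; 9.09%), close to the 8.76% of all coding promoters. The shares for the cell cycle homology words TTTGAA and TTCGAA (6.82%, against 12.8% of all coding promoters), the ETS word CCGGAAGT (6.82%, against 6.14%), the NRF1 consensus word (2.27%, against 1.69%) and the cAMP response word TGACGTCA (4.55%, against 2.69%) rested on 1 to 3 genes each. GGGCGG, bound by SP factors, was present at 68.2% (53.4 to 80.0), against 61.3% of all coding promoters and 80.5% of those with both peaks. Words of different factors may overlap, and a match is a description of the sequence only.

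**Figure D3:**
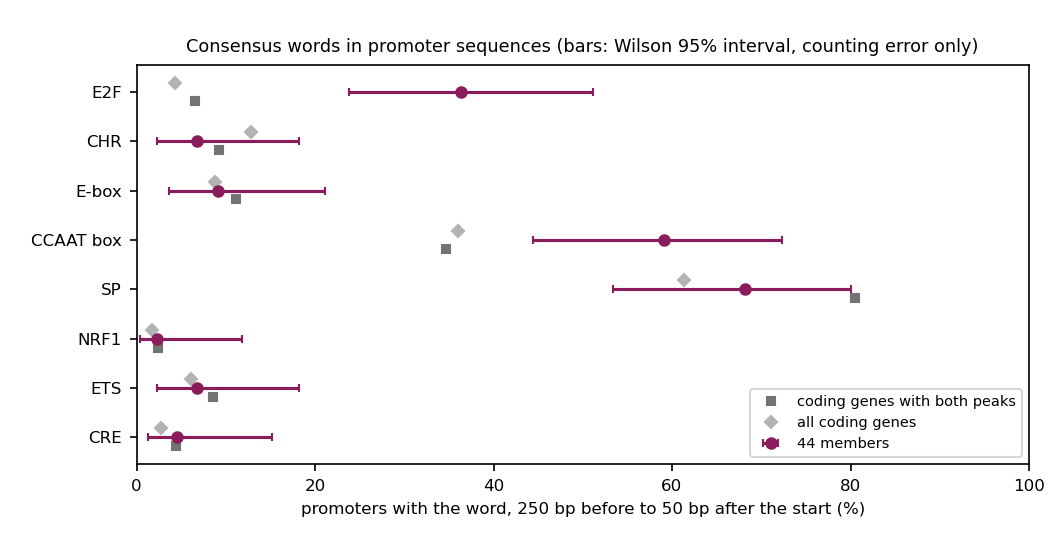
Share of promoters, in percent, that hold each consensus word between 250 bp before and 50 bp after the start, for the 44 replication genes (circles, Wilson 95% intervals), coding genes with both peaks (squares) and all coding genes (diamonds). The E2F words (36.4% against 4.36% of all coding genes) and CCAAT (59.1% against 36.1%) are the words whose interval lies above both other points.

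The clamp and its loader had CHD8 at all 6 genes and TRRAP at 4. PCNA, the ring that holds polymerases on DNA, had 2 CHD8 peaks: chr20:5119274-5120080 with a fold of 12.0 and chr20:5120169-5120362 with a fold of 6.22. Its TRRAP peak (fold 8.17) had its summit 582 bp downstream of the start, in an intron, the summit farthest downstream of any TRRAP peak given for these genes except the second one of TYMS, at 710 bp. RFC2 (chr7:74254136-74254884) had the highest CHD8 fold of the loader, 21.2, with a TRRAP fold of 6.73. RFC4 and RFC5 had CHD8 folds of 12.4 and 11.5 and TRRAP folds of 6.26 and 6.73, at the low end of the TRRAP range. The large subunit RFC1 (14.2) and RFC3 (10.2) had CHD8 only, and RFC3 had a second CHD8 peak, of fold 6.66, 454 bp downstream.

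The replicative helicase consists of the MCM ring, CDC45 and the GINS tetramer. All 5 CDC45 and GINS genes had CHD8, and TRRAP was present at 2, GINS1 (CHD8 fold 14.6) and GINS2 (8.87), each with a TRRAP fold of 7.21. CDC45 had the highest CHD8 fold of all 44 genes, 42.0 (chr22:19478802-19480107), and no TRRAP peak. Of the 155 coding genes with a CHD8 fold at least as high, 134 (86.5%) had TRRAP. Its CHD8 summit lay 426 bp upstream, between the starts of CDC45 and its neighbour UFD1. The nearest TRRAP peak outside the window had its edge 47238 bp from the start of CDC45, at the HIRA and MRPL40 promoters (fold 21.1). GINS3 and GINS4 had CHD8 folds of 13.3 and 8.43, the latter under a peak of 160 bp, the narrowest CHD8 peak of the 44 genes.

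The origin recognition complex marks origins before S phase, and its 6 genes all had CHD8, with TRRAP at 3. ORC1, the subunit whose level cycles, had folds of 22.6 for CHD8 (chr1:52403956-52405034) and 6.26 for TRRAP. ORC6 (chr16:46688598-46690412) had the widest CHD8 peak of the 44 genes, 1815 bp with a fold of 17.3, and 2 TRRAP peaks inside it. The stronger of these, of fold 11.5, had its summit 488 bp upstream, close to the start of VPS35 at 481 bp, and the weaker, of fold 8.65, had its summit 90 bp downstream of the ORC6 start. ORC5 had the lowest CHD8 fold of the 44 genes, 6.66, shared with TOP2A, and a TRRAP fold of 9.12. ORC2 (12.8), ORC3 (10.6) and ORC4 (17.3, chr2:148020379-148021744) had CHD8 only.

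Replication protein A coats single-stranded DNA, and its 3 genes showed 3 different states. RPA1 had both peaks (CHD8 11.5, TRRAP 9.60), with 402 bp shared. RPA2 had the second highest CHD8 fold of the 44 genes, 37.2 (chr1:27914222-27915217), and no TRRAP peak within 83625 bp of its start. Of 277 coding genes with a CHD8 fold at least that of RPA2, 229 (82.7%) had TRRAP. RPA3 had no peak at its canonical start (chromosome 7, 7718607), which is poor in CpG (ratio 0.128, the lowest of the 44 genes). At 5 of the 7 distinct starts annotated for RPA3 both peaks were present. The nearest of those starts lay 77635 bp downstream, where CHD8 (chr7:7640121-7641072, fold 12.4) and TRRAP (chr7:7640353-7640572, fold 11.0) also sit at the start of UMAD1.

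The genes that process Okazaki fragments and those that make deoxynucleotides had both peaks throughout, 3 of 3 and 4 of 4. The flap nuclease FEN1 had a CHD8 fold of 12.4 over 1134 bp and 2 TRRAP peaks of fold 7.21 each. LIG1, which seals the nicks, had folds of 20.8 and 8.65, with its TRRAP summit 319 bp upstream, close to the start of ZSWIM9 at 336 bp. RNASEH2A, which removes RNA from DNA, had 9.75 and 7.69. Ribonucleotide reductase, which makes deoxynucleotides, is formed by RRM1 and RRM2. RRM1, the large subunit, had the third highest CHD8 fold of the 44 genes, 33.2 (chr11:4094093-4095310), with a TRRAP fold of 8.17. RRM2, the small subunit, had 10.2 for CHD8 (chr2:10122072-10122887) and the third highest TRRAP fold, 15.3 (chr2:10122097-10122763). A second TRRAP peak in the RRM2 window (chr2:10121876-10122046, fold 6.26) had its summit 809 bp upstream. TYMS had folds of 12.0 and 9.60, and a second TRRAP peak of fold 8.65 with its summit 710 bp downstream. Thymidine kinase TK1 had 15.5 and 7.21. The CHD8 summit of TK1 lay 352 bp upstream, past the start of AFMID at 310 bp, and its TRRAP peak did not cover the TK1 start.

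Of the fork and topology genes, WDHD1 stood first for TRRAP. It encodes AND-1, which ties polymerase alpha to the helicase, and its TRRAP fold was 20.6 (chr14:55026918-55027545), a level reached by 4.97% of coding genes with TRRAP, with a CHD8 fold of 15.1. TIMELESS, a fork protection subunit, had folds of 9.75 and 7.21. CLSPN, the checkpoint mediator claspin, had 14.2 and 6.26, with both summits more than 500 bp downstream of the start (513 and 550 bp), in an intron. The topoisomerase TOP2A had a CHD8 fold of 6.66 and no TRRAP peak, and it was the only gene whose CHD8 peak (chr17:40418120-40418342) did not cover the start.

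TIPIN, the partner of TIMELESS, had no peak at its canonical start although this promoter holds 2 overlapping E2F words, one on each strand. The sequence before that start is given in the direction of the gene, with the overlapping words in capitals.
TIPIN (chr15:66356686-66356935, minus strand): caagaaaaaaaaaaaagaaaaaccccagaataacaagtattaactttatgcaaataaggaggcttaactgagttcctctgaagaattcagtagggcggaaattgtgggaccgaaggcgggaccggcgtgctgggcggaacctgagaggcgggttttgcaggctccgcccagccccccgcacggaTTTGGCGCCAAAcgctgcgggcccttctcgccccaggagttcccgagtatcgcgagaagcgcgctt
At 4 of its 5 annotated starts TIPIN had both peaks. The nearest of these starts was 30022 bp upstream of the canonical one, where the CHD8 peak chr15:66386627-66387115 had a fold of 12.8 and the TRRAP peak chr15:66386640-66387124 a fold of 36.4. These peaks also sit at the start of MAP2K1, and this TRRAP fold was above that of every canonical start of the 44 genes. Counting any annotated start, 44 of 44 genes had CHD8 and 32 had TRRAP, against 59.2% and 38.3% of all coding genes. RPA3 and TIPIN were the 2 genes gained.

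For the 12 genes with CHD8 only, no TRRAP peak was listed close by, though a missing peak does not show that TRRAP is absent. Their nearest TRRAP peaks had edges from 38660 bp (GINS4) to 543368 bp (POLA1) from the start, and 0 of the 12 had a TRRAP peak at any other annotated start. In CHD8 fold they spanned the whole range, 6.66 to 42.0, with a median of 11.7, beside a median of 12.8 for the 30 genes with both. Over all coding genes the medians were 10.6 with CHD8 only and 13.3 with both. Across the 30 genes with both, CHD8 and TRRAP folds had a Spearman rho of −0.109 (all coding genes with both, 0.144), which is given as a description of 2 libraries with many tied folds. No gene gained a CHD8 or TRRAP peak when the window was widened to 2500 bp. The closest peaks outside a window were at RRM2, which had both peaks inside its window as well. There a further CHD8 peak (fold 12.4) began 1812 bp upstream and a further TRRAP peak (fold 6.73) 1922 bp upstream. Just inside the 1 kb limit, the second CHD8 peaks of PRIM1 and PRIM2, each of fold 7.54, had summits 934 bp downstream and 948 bp upstream.

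**Figure D4:**
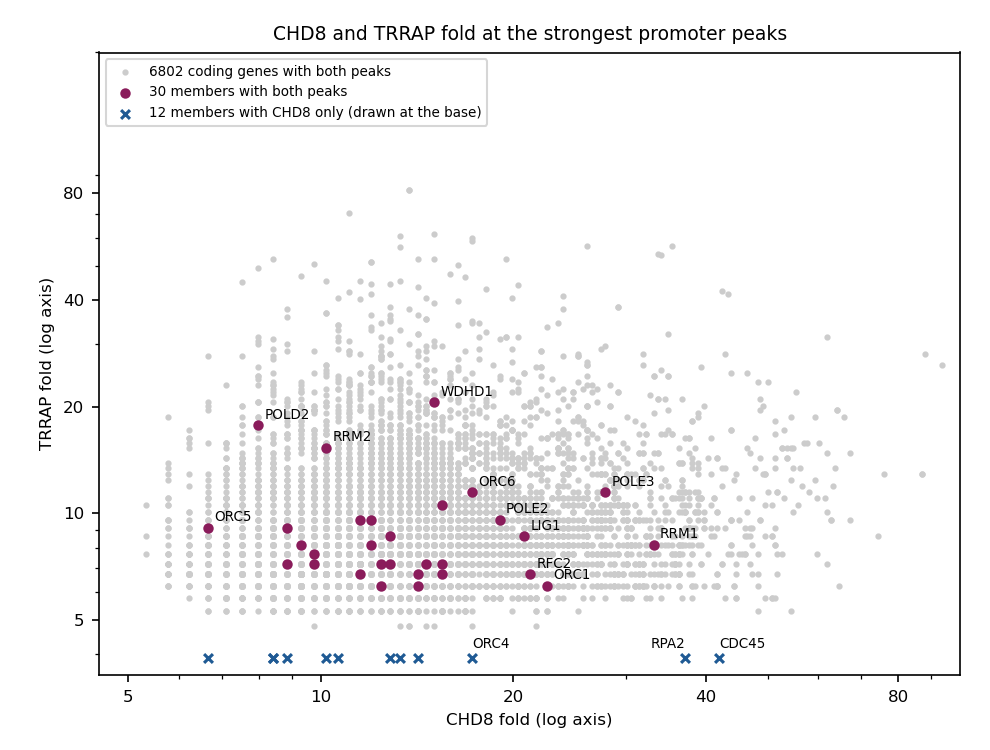
CHD8 fold against TRRAP fold at the strongest promoter peaks, both on log axes, for all 6802 coding genes with both peaks (grey) and the 30 replication genes with both (purple); the 12 with CHD8 only are crosses drawn at the base and have no TRRAP value. The replication genes spread over the lower part of the cloud, with POLD2, RRM2 and WDHD1 above 15 in TRRAP, and RPA2 and CDC45 among the crosses.

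Where both proteins were present, the TRRAP peak usually lay inside the CHD8 peak and near its summit. The same held for most coding genes with both. All 30 genes had CHD8 and TRRAP peaks that overlapped (98.4% of all coding genes with both), and in 24 (80.0%, against 71.8%) the strongest TRRAP peak lay wholly inside the strongest CHD8 peak. CHD8 peaks were wider at 29 of 30 genes (96.7%, against 92.0%), POLD2 being the exception, by a median of 2.58 times (all coding genes with both, 2.48). Median widths were 684.5 bp for CHD8 and 237 bp for TRRAP, beside 637 and 269 bp over all coding genes with a peak. The median distance between the summits was 89.5 bp (2 bp at PRIM1 to 313 bp at ORC1), beside 103 bp over all coding genes with both. The TRRAP summit lay downstream of the CHD8 summit at 20 of the 30 genes (66.7%), as it did at 47.6% of all coding genes with both.

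TRRAP summits clustered near the start. Their median distance from it was 56 bp over the 30 genes and 129.5 bp over all coding genes with TRRAP, and 24 of 30 (80.0%) lay within 250 bp, beside 70.0%. For CHD8 the median distance was 110 bp, beside 109 bp, and 32 of 42 summits (76.2%) lay within 250 bp, beside 75.0%. By the canonical transcript, 27 of the 42 CHD8 summits were upstream of the start (64.3%, beside 58.2% of all coding genes with CHD8), 6 in the 5' UTR, 6 in a coding exon and 3 in an intron. Of the 30 TRRAP summits, 15 were upstream (50%, beside 63.4% of all coding genes with TRRAP), 10 in the 5' UTR, 1 in a coding exon and 4 in an intron. A CHD8 peak covered the start itself at 41 of 42 genes (87.9% of all coding genes with CHD8) and a TRRAP peak at 23 of 30 (63.4% of all coding genes with TRRAP).

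**Figure D5:**
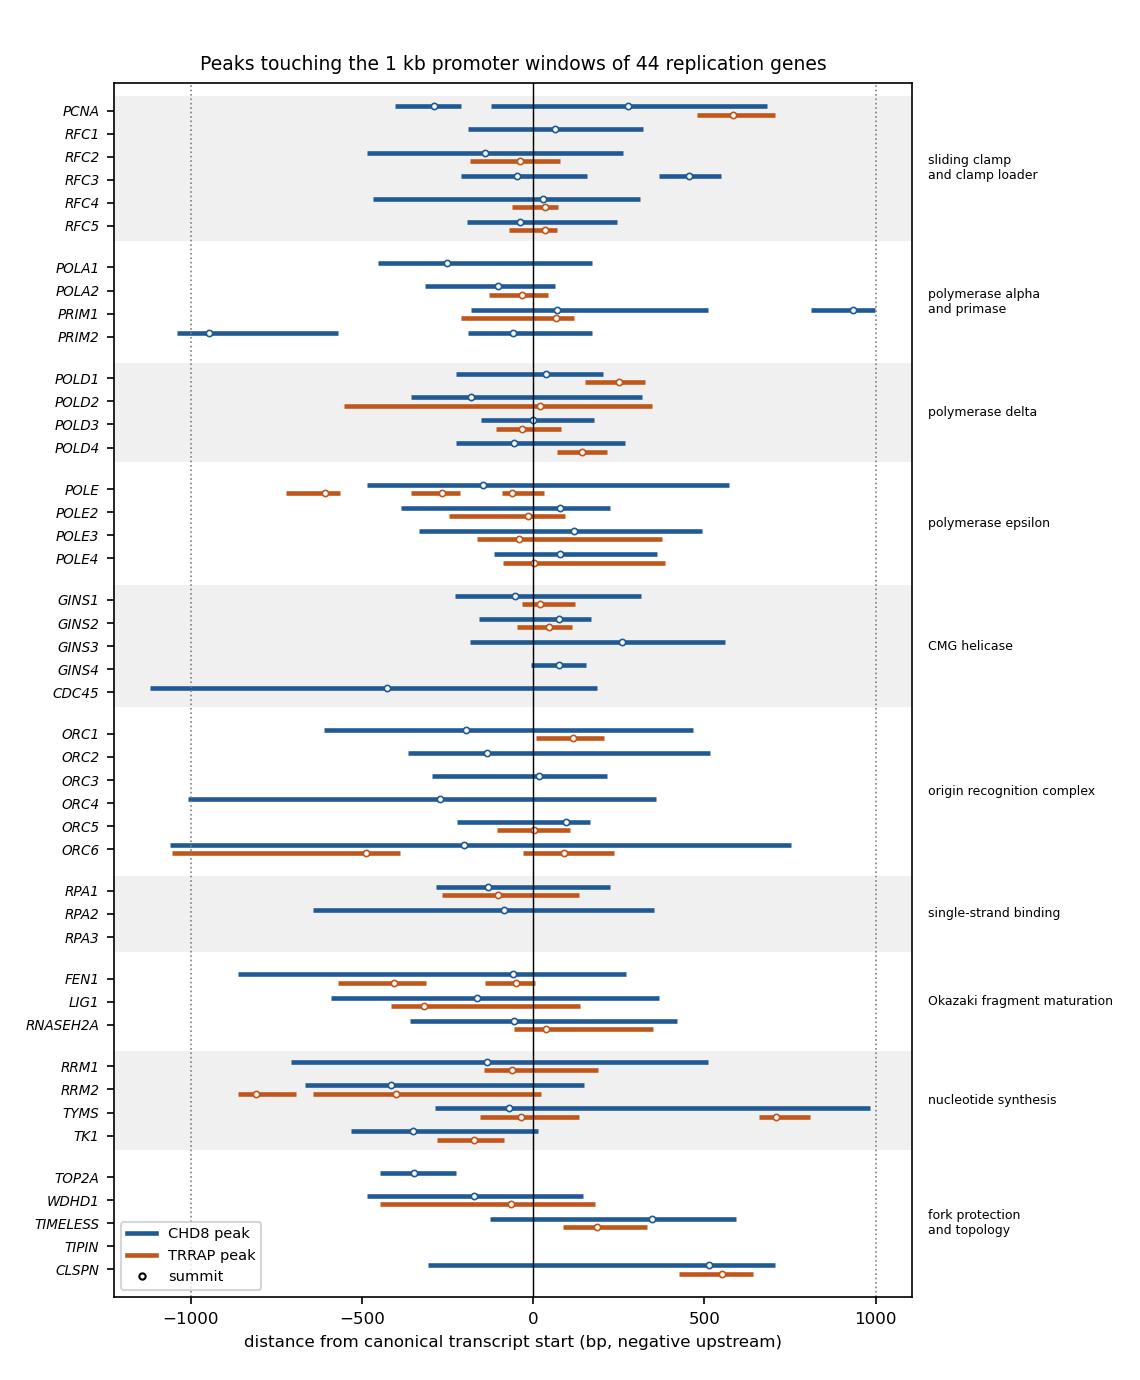
Extent of every CHD8 (blue) and TRRAP (orange) peak that touches the promoter window of the 44 genes, in bp from the start with upstream to the left; circles are summits and dotted lines the window limits. CHD8 bars cross the start at 41 genes, and the shorter TRRAP bars lie mostly within them.

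More of these genes than of coding genes at large lie head to head with another gene. At 12 of 44 (27.3%), the start of a coding gene on the opposite strand lay within 1 kb upstream, against 9.46% of all coding genes. The pairs, each named with its neighbour, were POLE with PXMP2, POLE3 with C9orf43, CDC45 with UFD1, ORC1 with PRPF38A, ORC3 with RARS2, ORC4 with MBD5, ORC6 with VPS35, RPA1 with SMYD4, FEN1 with TMEM258, LIG1 with ZSWIM9, TK1 with AFMID and WDHD1 with SOCS4. At all 12, 1 CHD8 peak covered both starts, as it did at 80.5% of all head-to-head coding genes with CHD8. At 6 of the 12 its summit lay between the starts, a share that was not computed for all head-to-head coding genes. The starts of the 12 pairs were from 72 bp (POLE3) to 727 bp (CDC45) apart. Median CHD8 width was 1009.5 bp at the 12 genes and 618.5 bp at the others with CHD8, and median CHD8 fold was 16.4 and 12.0. Over all coding genes the corresponding widths were 792 and 608 bp, and the folds 15.1 and 11.5. A peak over such a pair cannot be assigned to either gene. Both peaks were present at 9 of the 12 (75.0%) and at 21 of the other 32 (65.6%), beside 59.9% and 31.2% of all coding genes.

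Of 37 further replication genes (licensing, firing, clamp loading, histone deposition), 37 had CHD8 and 27 had both peaks. Of 29 further nucleotide synthesis genes, 28 had CHD8 and 21 had both. Over all 66 the share with both was 72.7% (61.0 to 82.0), against 34.0% of all coding genes. All 66 had a CpG ratio of at least 0.604. Among coding genes with a ratio of at least 0.6, 77.7% had CHD8 and 48.8% had both. E2F words were present at 16 of the 66 (24.2%), against 4.36% of all coding promoters. The 66 genes had a median CHD8 fold of 12.4 and a median TRRAP fold of 10.6, beside 12.8 and 8.17 at the 44 genes. TRRAP summits were farther from the start there, at a median of 179.5 bp.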

How the data were processed

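Peak lists from 1 CHD8 and 1 TRRAP ChIP-seq library were used. Per the submitters' processing notes, HISAT2 and MACS2 2.1.1.20160309 were used on GRCh38; the control and filters are not given in the sources used here. Per peak the authors deposited a fold (a linear ratio), −log10 p and −log10 q values, and a score that equalled 10 times −log10 q, rounded down, in all rows. By name, the CHD8 list was limited to a false discovery rate of 0.0001 and the TRRAP list to 0.001. Read totals are unknown, so no depth could be given.

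Coordinates are counted from 1; 0 peaks ran past a chromosome end of GRCh38. A gene had a promoter peak if any base of a peak lay within 1 kb of its canonical start (GENCODE 44). Wilson intervals are at 95%. Exact words of 32 bp in the 101 bp around each summit of these genes were counted in the genome. The median count of the words around a summit was 1 at all summits, which leaves room for some repeated words. The counting code was tested on simulated peaks. Alternative windows, start sites, peak thresholds and overlap rules were tried. All 44 genes are named, with fuller values for the highest folds, genes lacking a peak and genes with several; exon-free upstream sequence was printed for genes with both peaks and an E2F word in it. TIPIN and the short E2F sites were chosen after their values were seen. The genes and lists were chosen with earlier results of these data known. Python 3.11.15, numpy 2.4.6, pandas 2.3.3, scipy 1.17.1, pysam 0.24.0, numba 0.67.0, matplotlib 3.10.9 and samtools 1.23.1 were used.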

Additional observations from a re-analysis of the deposited data

How the results depend on the processing

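The count of 42 genes with CHD8 held with windows of 500 and 2500 bp and with summits in place of peaks, and was 44 with any transcript start, 39 with a CHD8 list as short as the TRRAP list and 33 with peaks above the median rank of their list. The settings that left the counts with TRRAP and with both within 1.5 times gave 30 to 32 and 28 to 32 genes. Peaks above the median rank gave 13 genes with TRRAP (29.5%, against 19.5% of all coding genes) and 10 with both (22.7%, against 16.7%). They also gave 10 genes with overlapping peaks and 28 of the 66 further genes with both. With at least 50% of the shorter peak in common, 29 genes had overlapping peaks, and with summits within 200 bp, 26. For the overlap counts at these settings, shares of all coding genes were not computed. The median folds, widths and summit distances did not move with the window or with the choice of the nearest summit. E2F words were present at 10 of 42 genes within 100 bp of the CHD8 summit, against 3.77% of all coding genes with CHD8. No paired analysis was possible because each antibody had 1 library. Read totals are unknown, so a missing peak does not show that a protein is absent.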

Other observations

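Among the 66 further replication and nucleotide genes, the highest TRRAP folds were above those of the 44 genes at their canonical starts. They were singled out after their values were seen. DBF4, the activator of the CDC7 kinase that fires origins, had a TRRAP fold of 51.2 with a CHD8 fold of 12.0, and the histone chaperone ASF1A had 43.0 with 18.1. UHRF1, which brings DNA methyltransferase to replicated DNA, had 22.5 with 11.5. The purine synthesis genes PPAT and PAICS, whose starts are 645 bp apart, share their strongest peaks, with folds of 10.6 for TRRAP and 12.8 for CHD8, and were each counted. ATIC, which completes purine synthesis, was the only one of the 66 without a CHD8 promoter peak.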
